A study of Mus musculus with 38 samples.

Results

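The Cyp1 family holds 3 genes in the mouse, Cyp1a1, Cyp1a2 and Cyp1b1, which code for the cytochrome P450 enzymes that oxidise polycyclic aromatic hydrocarbons. All 3 genes were measured, each by 1 probe, of 55681 probes and 20018 named genes on the array, and 2 of the 3 gave a signal well above background in at least 1 sample. Members were chosen by gene name and not by a cut on their values, though earlier results of these data were known. The animals were male MutaMouse of about 10 weeks, a strain with a transgenic mutation reporter, whose lung and forestomach were taken. They had been given dibenz[a,h]anthracene (DBahA) in olive oil by oral gavage for 28 days and were dissected 72 h after the last dose. In mg/kg-bw/day, the groups received 0 (D0, olive oil alone), 6.25 (D1), 12.5 (D2) or 25 (D3). Lung had 5, 5, 4 and 5 mice in D0, D1, D2 and D3. Forestomach had 5, 5 and 4 mice in D0, D1 and D2, and in D3 5 arrays carrying 4 mouse numbers, with mouse 18 on 2 arrays that were averaged to 1 value. The first of them lay on the slide of lung mouse 18 and the second on the slide of lung mouse 20, while in the other 17 mice both tissues shared a slide, so whether both arrays hold 1 animal cannot be told from the labels.

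The enzymes are controlled by the aryl hydrocarbon receptor (AhR). A polycyclic aromatic hydrocarbon binds the receptor in the cytoplasm, the complex moves to the nucleus, pairs with Arnt and binds short DNA elements with the core GCGTG before its target genes. Cyp1a1 and Cyp1b1 are the inducible forms of tissues outside the liver, while Cyp1a2 is chiefly a liver enzyme. Each oxidises such a hydrocarbon to an epoxide, epoxide hydrolase (Ephx1) opens it to a diol, and a further Cyp1 oxidation gives the diol epoxide that binds DNA.

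Ahrr codes for the repressor of AhR and is itself an AhR target. The stretches just before the 3 genes and before Ahrr are printed to show where the core lies within them. They are the 250 bases before each transcript's start from RefSeq on GRCm38.p6, on the gene's own strand from 5′ to 3′, in lower case with GCGTG or its reverse complement CACGC in capitals.

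Cyp1a1, chr9:57697363-57697612, plus strand: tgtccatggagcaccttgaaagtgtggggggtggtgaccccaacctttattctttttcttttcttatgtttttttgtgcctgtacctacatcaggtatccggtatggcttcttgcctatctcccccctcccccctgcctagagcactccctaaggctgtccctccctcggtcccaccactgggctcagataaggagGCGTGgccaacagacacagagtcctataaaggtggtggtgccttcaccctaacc
Cyp1a2, chr9:57683656-57683905, minus strand: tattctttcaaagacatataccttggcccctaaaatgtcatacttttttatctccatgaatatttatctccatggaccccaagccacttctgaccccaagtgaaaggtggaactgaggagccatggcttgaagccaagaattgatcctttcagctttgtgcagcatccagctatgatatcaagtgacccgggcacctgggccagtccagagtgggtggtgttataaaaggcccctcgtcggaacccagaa
Cyp1b1, chr17:79715062-79715311, minus strand: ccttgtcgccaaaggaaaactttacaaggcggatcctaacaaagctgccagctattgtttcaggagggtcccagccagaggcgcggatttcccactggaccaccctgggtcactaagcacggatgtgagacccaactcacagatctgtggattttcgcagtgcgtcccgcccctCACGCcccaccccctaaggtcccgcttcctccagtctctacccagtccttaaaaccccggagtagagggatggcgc
Ahrr, chr13:74292332-74292581, minus strand: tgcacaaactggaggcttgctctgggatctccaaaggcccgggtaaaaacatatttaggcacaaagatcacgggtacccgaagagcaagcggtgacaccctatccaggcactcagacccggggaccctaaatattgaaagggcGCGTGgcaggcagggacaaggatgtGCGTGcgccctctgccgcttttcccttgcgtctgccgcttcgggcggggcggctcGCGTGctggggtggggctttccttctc

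The stretch before Cyp1a1 held 1 core, starting 54 bases before the start and followed by a TATAAA box at 30 bases. The stretch before Cyp1b1 held 1 core, on the opposite strand at 76 bases, and no TATAAA. The stretch before Cyp1a2, the neighbour of Cyp1a1 on chromosome 9, held no core and a TATAAA box at 29 bases. Ahrr had 3 cores. GCGTG on either strand was found in 28.2% of the 32851 RefSeq promoter stretches of this length, and 2 or more times in 8.63%. TATAAA on the gene's strand was found in 7.59%. These letters are common, and a match or its absence says nothing about binding. Bases further upstream were not searched.

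Each array compared tissue RNA, labelled with Cy5, with one common reference RNA pooled from mouse cell lines, labelled with Cy3. A value below is the log2 ratio of Cy5 to Cy3 after loess normalization within the array. A probe was called where limma's test, adjusted over all probes by the Benjamini-Hochberg method, gave an adjusted p of 0.05 or less and the fold was 1.5 or more. Between 41.5% and 63.8% of probes were well above background in lung and between 30.1% and 60.8% in forestomach. Surfactant protein C (Sftpc), the club cell protein Scgb1a1 and Ager of type 1 alveolar cells were well above background in 19 of 19 lung arrays, and the squamous keratins Krt5, Krt14, Krt13 and Krt4 in 19 of 19 forestomach arrays, while Krt4 was so in 0 of the lung arrays and Ager in 0 of the forestomach arrays. Scgb1a1 was also well above background in 19 of 19 forestomach arrays. Forestomach arrays fell apart by markers of the neighbouring glandular stomach, whose score, the mean log2 difference of 8 measured genes from the D0 mean, lay between -3.50 and -2.89 in 6 arrays and between 0.77 and 2.73 in the other 13. The 2 arrays of mouse 18 lay on opposite sides, at -2.89 and 2.34. Exposure was visible in lung by Cdkn1a, the p53 target that arrests the cell cycle, whose log2 fold change at D3 was 2.93 (SE 0.17, limma, adjusted p = 1.87e-09). In forestomach the mean log2 ratio of Cdkn1a was 0.71 in D0 and 0.63 in D3, so exposure was not visible there by this gene.

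Cyp1a2 gave no measurable signal in either tissue. Its tissue signal was well above background on 0 of 38 arrays, and Cy5 over local background lay between 0.80 and 1.27. The reference was also at background on all 38 arrays. No fold is given for it at any dose.

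**Figure D1:**
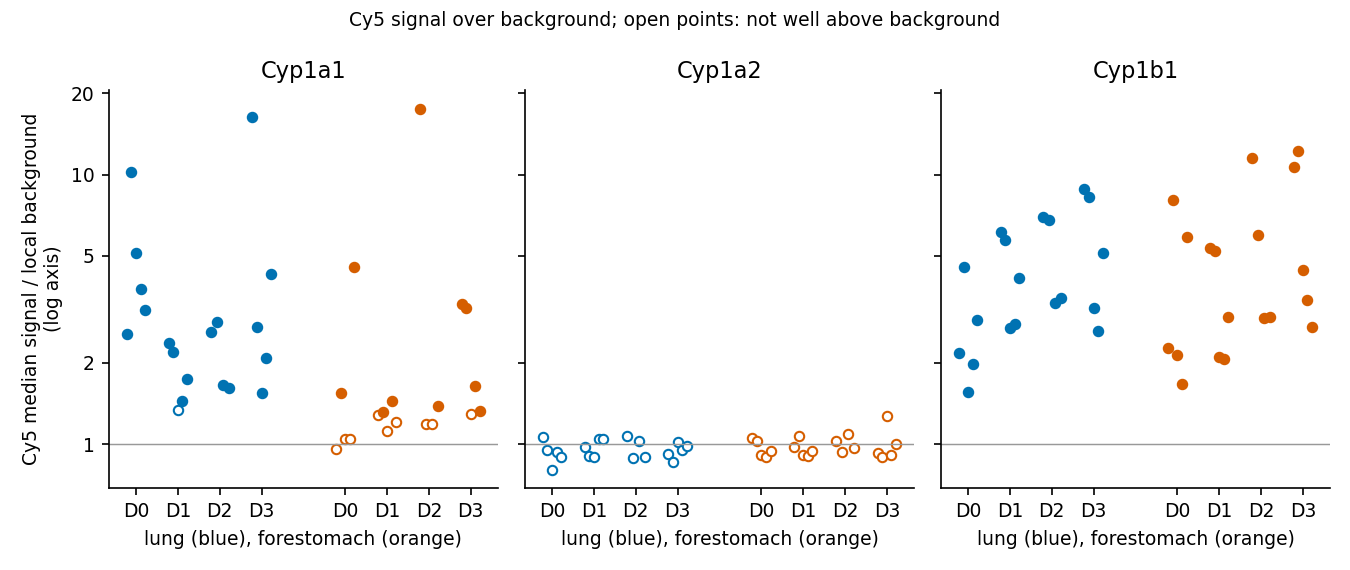
Cy5 median signal over local background (log axis) for each array, one panel per Cyp1 probe, with lung in blue and forestomach in orange by dose group. Open points are not well above background, which holds for all 38 arrays of Cyp1a2, 10 of 38 of Cyp1a1 and none of Cyp1b1; heights are not comparable between probes.

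Cyp1a1, the strongly inducible member, had lower log2 ratios in all lungs of D1 and D2 mice than in any vehicle lung, though the difference did not pass the test over all probes. It varied most at D3. In D0 lung the log2 ratios of mice 1 to 5 were 1.93, 3.77, 3.29, 2.86 and 2.45. In D1 lung those of mice 6 to 10 were 1.31, 1.11, 0.36, 0.75 and 1.21. In D2 lung mice 11, 12, 13 and 15 had 1.66, 1.41, 0.87 and 0.98. Every mouse of both groups lay under the lowest D0 mouse, so neither group overlapped D0. Of all probes, 0.444% lay wholly below D0 in this way at D1 and 1.07% at D2. In D3 lung mice 16 to 20 had 4.31, 1.27, 0.73, 1.54 and 2.82, so that mouse 16 lay above every vehicle mouse, mouse 20 among them and the other 3 below them.

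The signal itself gave the same order of groups. Without normalization between arrays, the median Cy5 signal after subtraction of local background was 185 intensity units in D0 lung (range 106 to 647), 53.5 in D1 (22 to 93), 79 in D2 (43.5 to 133) and 132 in D3 (37 to 1073). The probe was well above background in Cy5 on 18 of 19 lung arrays, all but mouse 8 of D1. The reference signal was well above background on 0 of 38 arrays, at 0.85 to 1.77 times its local background, so the ratio of this probe rests on a denominator at background level.

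As log2 fold changes, Cyp1a1 in lung was at -1.91 at D1 (SE 0.47, lower in 5 of 5 mice), -1.63 at D2 (SE 0.50, 4 of 4) and -0.73 at D3 (SE 0.47, 4 of 5), each against the D0 mean. None was called over all probes, with limma adjusted p of 0.172, 0.270 and 0.626. Over all probes, 0.14% were called at D1 (0.0018% lower), 0.264% at D2 (0.0108% lower) and 0.639% at D3 (0.0844% lower). The mean of D1 to D3 against D0 was -1.42 (SE 0.39, 95% interval -2.24 to -0.61, lower in 13 of 14 mice, limma adjusted p = 0.0927), where 0.411% of probes were called and 0.0287% were called lower. Between D3 and D1 the difference was 1.19 (SE 0.47, adjusted p = 1.00), and 0% of probes were called, while 2448 had an unadjusted p under 0.05.

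Mouse 16 and the slide bore on these tests. Slide 1, which carried mouse 16, held no D0 array. Without mouse 16 the D3 difference was -1.27 (SE 0.36, adjusted p = 0.144), without mouse 18 it was -0.38 and not called, and D3 minus D1 was 0.64 without mouse 16. Without mouse 16 the mean of D1 to D3 was -1.61 and called (adjusted p = 0.00471). With slide as a block the log2 fold change was -2.16 at D1 (adjusted p = 0.0135) and -1.93 at D2 (adjusted p = 0.0467), both called. With the scanner software's background-subtracted log ratio the values for D1, D2 and D3 were -3.24, -2.55 and -1.62, with adjusted p of 0.0510, 0.189 and 0.333, none called. Within the slides that held D0, the value minus the D0 mean of the slide was negative in 4 of 4 D1 mice (-2.93 to -0.98), in 3 of 3 D2 mice (-2.42 to -1.89) and in 3 of 4 D3 mice (-2.56 to 0.63).

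**Figure D2:**
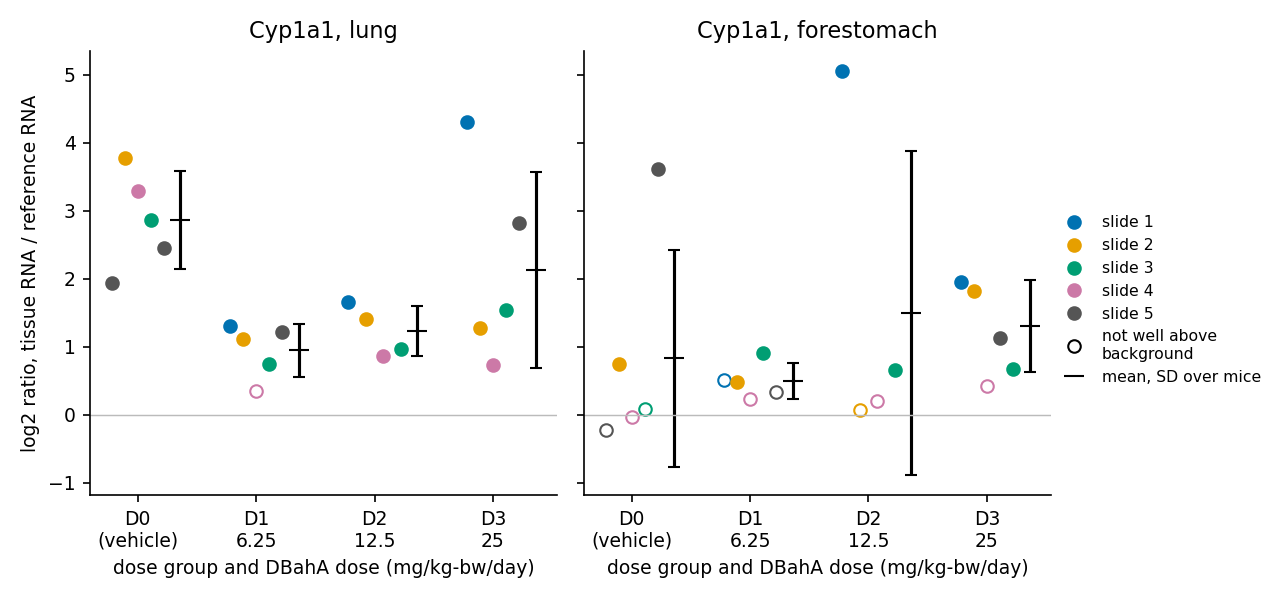
Cyp1a1 log2 ratio of tissue RNA over reference RNA for each array by dose group in lung (left) and forestomach (right), coloured by slide, with open points not well above background and bars giving the mean and SD over mice. All D1 and D2 lungs lie below all D0 lungs, and mouse 16 of D3 lung (4.31) and mice 5 (3.61) and 11 (5.05) in forestomach stand high.

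In forestomach Cyp1a1 was near background in most mice and high in a few, of vehicle and treated groups alike. D0 mice 1 to 5 had log2 ratios of -0.23, 0.74, -0.03, 0.08 and 3.61. D1 mice 6 to 10 had 0.51, 0.49, 0.24, 0.92 and 0.33, and D2 mice 11, 12, 13 and 15 had 5.05, 0.08, 0.20 and 0.66. D3 mice 16, 17 and 19 had 1.95, 1.82 and 0.68, and mouse 18 had 0.42 and 1.13 on its 2 arrays. All groups overlapped. The probe was well above background on 2 of 5 D0 arrays, 2 of 5 D1 arrays, 2 of 4 D2 arrays and 4 of 5 D3 arrays.

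No Cyp1a1 difference in forestomach was called. The log2 fold change was -0.34 at D1 (SE 0.83), 0.66 at D2 (SE 0.88) and 0.47 at D3 (SE 0.88), with limma adjusted p of 1.00 each. In forestomach 0% of probes were called at any dose, while 2404, 1728 and 1984 probes had an unadjusted p under 0.05 at D1, D2 and D3. The D3 interval ran from -1.39 to 2.33, which includes a 2-fold difference either way. The D3 value was 0.38 with the first array of mouse 18 alone and 0.56 with the second, 2.43 with the scanner software's log ratio, 0.19 with slide as a block, and 0.21 to 1.16 with single mice left out. At D2 the scanner software's log ratio gave 1.88. Single mice set the sign at the other doses, since D2 was at -0.52 without mouse 11 and D1 at 0.36 without mouse 5. Mouse 11 had a glandular stomach score of 1.44 and mouse 5 of -2.90, so these 2 high values occurred on both sides of that split. Over 18 forestomachs Spearman's rho of Cyp1a1 with that score was -0.54 (Pearson's r -0.15). In lung mouse 5 had 2.45, within the range of D0. Mouse 11 had 1.66 there, the highest of the 4 D2 lungs but below every D0 lung.

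Cyp1b1, which is expressed chiefly outside the liver, rose in lung at D2 and D3. Its probe was well above background in both channels on 38 of 38 arrays, and its reference signal was 15.5 to 44.5 times local background. D0 mice 1 to 5 had log2 ratios of -2.12, -1.72, -1.96, -1.26 and -1.45. D1 mice 6 to 10 had -1.31, -1.42, -1.41, -1.17 and -1.33, with an SD of 0.10 against 0.35 in D0. D2 mice 11, 12, 13 and 15 had -0.91, -1.30, -1.01 and -0.67, and D3 mice 16 to 20 had -0.73, -0.96, -1.18, -1.32 and -1.04. Every treated mouse lay above the D0 mean, and each treated group overlapped D0 only through vehicle mouse 4.

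The log2 fold change of Cyp1b1 in lung was 0.37 at D1 (SE 0.15, limma adjusted p = 0.669), 0.73 at D2 (SE 0.15, adjusted p = 0.0365, 4 of 4 mice) and 0.66 at D3 (SE 0.15, adjusted p = 0.0235, 5 of 5 mice). D2 and D3 were called, and D1 was not. D3 minus D1 was 0.29 (SE 0.15, adjusted p = 1.00). The mean of D1 to D3 rose by 0.59 (SE 0.12, adjusted p = 0.0147, 14 of 14 mice), just past the fold threshold. Shares called higher over all probes were 0.138% at D1, 0.253% at D2, 0.555% at D3 and 0.383% for the mean.

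The calls were near the limit of the test, and at D2 and D3 they were not made with median centring (1.04 and 0.94) or with the scanner software's log ratio (1.02 and 0.89). D2 was not called without mice 11, 13 or 15 of D2 or mice 1, 2 or 3 of D0, where the log2 fold change was 0.62 to 0.74 and the adjusted p 0.0774 to 0.154. D3 was not called without mice 16, 17 or 20 of D3 or mice 1 or 3 of D0, where it was 0.55 to 0.66 with an adjusted p of 0.0521 to 0.0900. The mean of D1 to D3 was not called without any one of mice 1, 2, 3, 6, 9, 11, 15, 16 or 17, at 0.48 to 0.58 with an adjusted p of 0.0196 to 0.0609. Within slides that held D0, the difference was positive in 4 of 4 D1 mice, 3 of 3 D2 mice and 3 of 4 D3 mice.

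**Figure D3:**
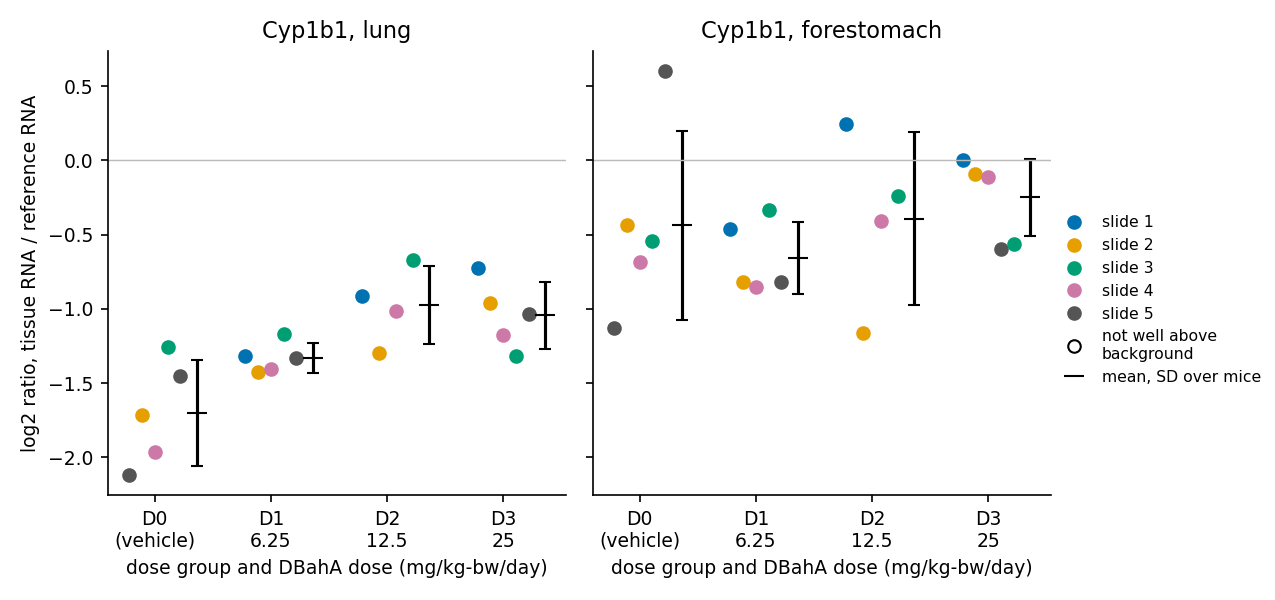
Cyp1b1 log2 ratio of tissue RNA over reference RNA for each array by dose group in lung (left) and forestomach (right), coloured by slide, with bars giving the mean and SD over mice. In lung the group mean goes from -1.70 in D0 to -1.33, -0.97 and -1.04 in D1, D2 and D3, while the forestomach groups overlap throughout.

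In forestomach Cyp1b1 did not pass the test at any dose. D0 mice 1 to 5 had -1.13, -0.44, -0.69, -0.54 and 0.60, and D1 mice 6 to 10 had -0.46, -0.82, -0.85, -0.33 and -0.82. D2 mice 11, 12, 13 and 15 had 0.25, -1.16, -0.41 and -0.24. D3 mice 16, 17 and 19 had 0.01, -0.09 and -0.56, and mouse 18 had -0.11 and -0.60. The groups overlapped, and mice 5 and 11, the 2 with the highest Cyp1a1, also had the highest Cyp1b1. The log2 fold change was -0.22 at D1 (SE 0.28), 0.05 at D2 (SE 0.29) and 0.19 at D3 (SE 0.29, interval -0.43 to 0.80), with limma adjusted p of 1.00 each.

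**Figure D4:**
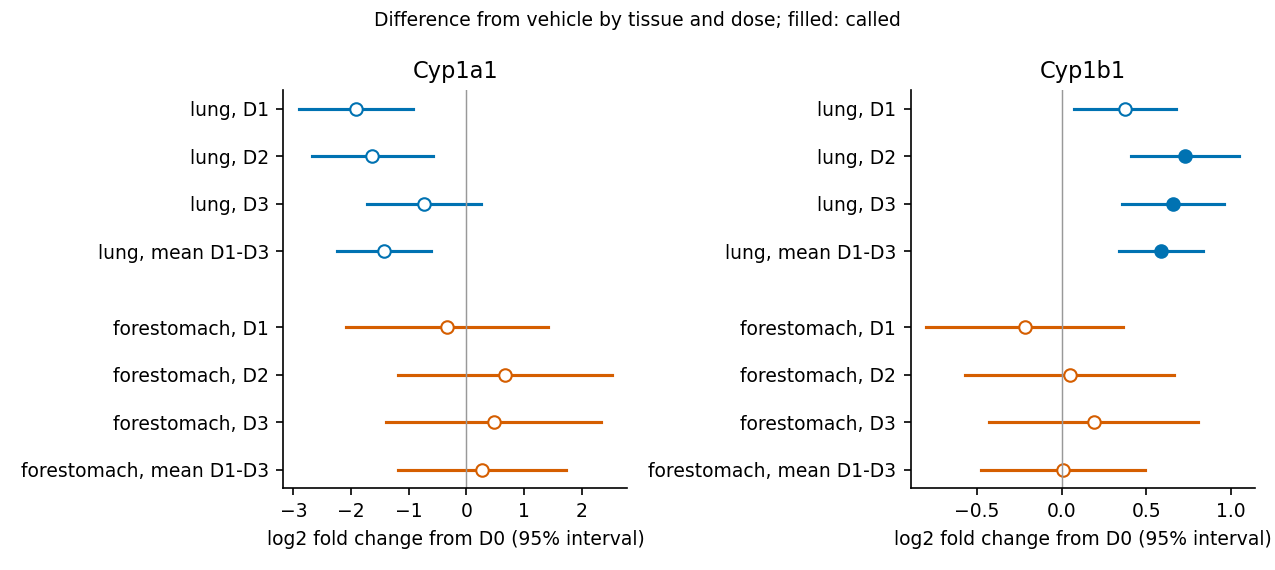
Log2 fold change from D0 with its 95% interval for Cyp1a1 (left) and Cyp1b1 (right) at each dose and for the mean of D1 to D3, in lung (blue) and forestomach (orange), with filled points called. The points called are Cyp1b1 in lung at D2 (0.73), D3 (0.66) and the mean (0.59).

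The tissues differed in vehicle mice in opposite ways for the 2 genes. At D0 the log2 ratio of Cyp1a1 was higher in lung than in forestomach by 2.03 (SE 0.70, limma adjusted p = 0.0282), in 4 of 5 mice, the exception being mouse 5. The probe was well above background on only 2 of these 5 forestomach arrays, so the size of this difference rests on a forestomach level at background in the other 3 mice. With the scanner software's background-subtracted log ratio it was 4.59 (adjusted p = 0.00424), with median centring 1.52 (adjusted p = 0.0793) and with the Cy5 channel alone 1.44. That of Cyp1b1 was lower in lung, with a log2 difference of -1.26 (SE 0.23, adjusted p = 3.47e-05), in 5 of 5 mice. Of all probes, 16.2% were called, 8.62% higher in lung and 7.6% lower. The Cyp1a1 call was lost without lung mouse 2 or 3 or forestomach mouse 1, 3 or 4, where the adjusted p was 0.0578 to 0.0802. Lung and forestomach came from the same mice, and with mouse as a fixed replicate block the adjusted p was 0.0151 for Cyp1a1 and 1.43e-06 for Cyp1b1.

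The response to DBahA was not shown to differ between the tissues for either gene. For the mean of D1 to D3, the lung response minus the forestomach response was -1.69 for Cyp1a1 (SE 0.82, interval -3.37 to -0.01) and 0.58 for Cyp1b1 (SE 0.26, interval 0.04 to 1.12), with limma adjusted p of 1.00 each, where 0.192% of probes were called, 0.19% higher and 0.0018% lower. By dose, the difference was -1.58, -2.30 and -1.20 for Cyp1a1 and 0.59, 0.68 and 0.47 for Cyp1b1 at D1, D2 and D3, also not called. The share of probes called was 0.0323% at D1 and 0.0611% at D2, all higher, and 0.172% at D3, of which 0.167% higher and 0.00539% lower. With mouse as a fixed replicate block the differences were -1.75 and 0.58, with adjusted p of 0.714 and 0.355. With the scanner software's log ratio that of Cyp1a1 was -4.11 for the mean and -4.05 at D3, with adjusted p of 0.651 and 0.956. Without forestomach mouse 5 of D0, that of Cyp1b1 was 0.32 for the mean. After exposure, lung Cyp1a1 was above that of forestomach in 4 of 5 D1 mice, 3 of 4 D2 mice and 2 of 4 D3 mice. Lung Cyp1b1 was below that of forestomach in all 18 mice with both tissues, the vehicle mice included.

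Values of the 2 genes were set against each other within each tissue. Over 18 forestomachs Pearson's r between Cyp1a1 and Cyp1b1 was 0.84 (Spearman's rho 0.85), and over 19 lungs -0.17 (rho -0.19), with dose groups pooled. In forestomach the Cyp1a1 probe was well above background on only 10 of 19 arrays. Its highest values there, in mice 5 (3.61) and 11 (5.05), weigh on Pearson's r. Between lung and forestomach of the same 18 mice r was 0.15 for Cyp1a1 and 0.50 for Cyp1b1. In forestomach many scores went with the 2 genes. Cyp1a1 had r = 0.53 with the squamous epithelium score, 0.51 with endothelium, 0.46 with club cell markers and -0.57 with type 1 alveolar markers. Cyp1b1 had r = 0.71 with squamous epithelium, 0.67 with club cell markers, 0.56 with smooth muscle, 0.48 with fibroblasts and -0.45 with type 1 alveolar markers. Both had r = -0.55 with the score of 4 p53 target genes. With the glandular stomach score r was -0.15 for Cyp1a1 (rho -0.54) and -0.35 for Cyp1b1 (rho -0.55). These are descriptions of bulk tissue over samples that share slides and reference, and the part of tissue content in them was not tested. In bulk tissue, fewer cells of a type and less RNA per cell cannot be told apart.

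By likeness of log2 ratio over the 19 lungs, the 5 genes closest to Cyp1b1 were Dusp22 (r = 0.87), Reep3 (0.83), Gne (0.83), Sncg (0.83) and Hint3 (0.82), among 12626 genes well above background. Sncg, which codes for gamma-synuclein, had a log2 fold change of 0.89 at D3 and a limma adjusted p of 0.00219. Dose groups were pooled for r, so genes that rise with dose were favoured and this change is no separate result. For Cyp1a1 in lung they included Cab39l (r = 0.76), Aloxe3 (0.71), Pak6 (0.71) and Elmo3 (0.70). The log2 fold changes of these genes lay between -0.24 and -0.14 at D1 and between -0.13 and 0.04 at D3. In forestomach those closest to Cyp1b1 were the collagen genes Col4a5 (r = 0.91) and Col23a1 (0.91), followed by Gpm6b (0.88), Luzp1 (0.87) and Map3k20 (0.87), among 10840 genes. Cyp1a1 in forestomach and Cyp1a2 were too often at background for such a list.

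None of the other AhR targets listed was called. Of 9 such genes in lung, 3 had a value above 0 and 0 were called in the mean of D1 to D3, and their median log2 fold change was -0.10, with 0.00 for all probes. Of all probes 0.411% were called in this contrast, so 0 of 9 is near that share. Tiparp, an ADP-ribosyltransferase that limits AhR, was at 0.06, Nqo1, the quinone reductase, at -0.04, and Aldh3a1, an aldehyde dehydrogenase, at -0.14, with limma adjusted p of 0.868, 0.931 and 0.811. Cyp2s1, another P450 enzyme, was at -0.54 (adjusted p = 0.326). In forestomach 0 of 9 were called, with a median of -0.01, and 0% of all probes were called there. With median centring in place of loess the median of all lung probes above background lay at 0.35 for this contrast, and Tiparp, Nqo1 and Aldh3a1 lay at 0.46, 0.31 and 0.31, none called.

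Among the AhR targets Ahrr lay near background in lung. Its tissue signal was well above background on 0 of 5 D0 lung arrays, 5 of 5 at D1, 3 of 4 at D2 and 5 of 5 at D3. These counts were not adjusted for array brightness, with 41.5% to 63.8% of probes well above background between lung arrays. The share of all probes with this pattern was not computed. D0 mice 1 to 5 had log2 ratios of -0.31, -0.53, -0.29, -0.60 and -0.46. D3 mice 16 to 20 had 0.04, 0.02, 0.12, 0.08 and 0.32, all above D0, as were 2.05% of all probes. With no D0 array well above background, the D0 level is known only as an upper limit, and the size of the difference depended on how background was treated. The log2 fold change at D3 was 0.55 (SE 0.09, limma adjusted p = 0.00206), under the fold threshold and so not called. With the scanner software's background-subtracted log ratio it was 2.11 (adjusted p = 0.00143), and called, as it was with slide as a block (0.60, adjusted p = 0.000454), and with median centring it was at 0.42 (adjusted p = 0.732). At D1 and D2 it was 0.37 and 0.40, not called, and with the scanner software's log ratio 1.71 and 1.64, both called. The second Ahrr probe was well above background on 0 of 19 lung arrays.

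Among the partners of Cyp1 in the pathway 1 gene was called. In lung 0 of 7 genes of the receptor and its complex were called (median -0.18, with Ahr itself at -0.25, adjusted p = 0.316), 0 of 10 genes of haem synthesis and breakdown (median 0.01) and 0 of 7 measured conjugating enzymes (median -0.12). These values are for the mean of D1 to D3, where 0.411% of all probes were called, so the counts of 0 are near that share. Of 6 genes of electron supply and epoxide hydrolysis 1 was called. Por, the reductase that feeds electrons to all microsomal P450 enzymes, was at -0.20 (adjusted p = 0.493).

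This gene was Ephx1, the microsomal epoxide hydrolase that takes up the epoxides made by Cyp1. In D0 lung mice 1 to 5 had log2 ratios of 1.05, 1.08, 0.99, 1.24 and 1.40. D1 mice 6 to 10 had 2.18, 1.96, 1.75, 1.97 and 1.78, D2 mice 11, 12, 13 and 15 had 2.18, 2.29, 2.07 and 2.15, and D3 mice 16 to 20 had 2.34, 2.09, 2.19, 2.28 and 2.11. All 14 treated lungs lay above all 5 vehicle lungs, where 0.912%, 1.59% and 2.05% of all probes lay wholly above D0 at D1, D2 and D3. Ephx1 rose by 0.78 at D1 (SE 0.09, limma adjusted p = 0.000175), 1.02 at D2 (SE 0.10, adjusted p = 6.93e-06) and 1.05 at D3 (SE 0.09, adjusted p = 1.18e-06). With median centring it was at 1.13, 1.48 and 1.45, with adjusted p of 0.818, 0.658 and 0.732, and not called. Its second probe was called at the same doses, at 0.72, 0.81 and 0.93. In forestomach Ephx1 was at 0.16 for the mean of D1 to D3 (adjusted p = 0.999).

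**Figure D5:**
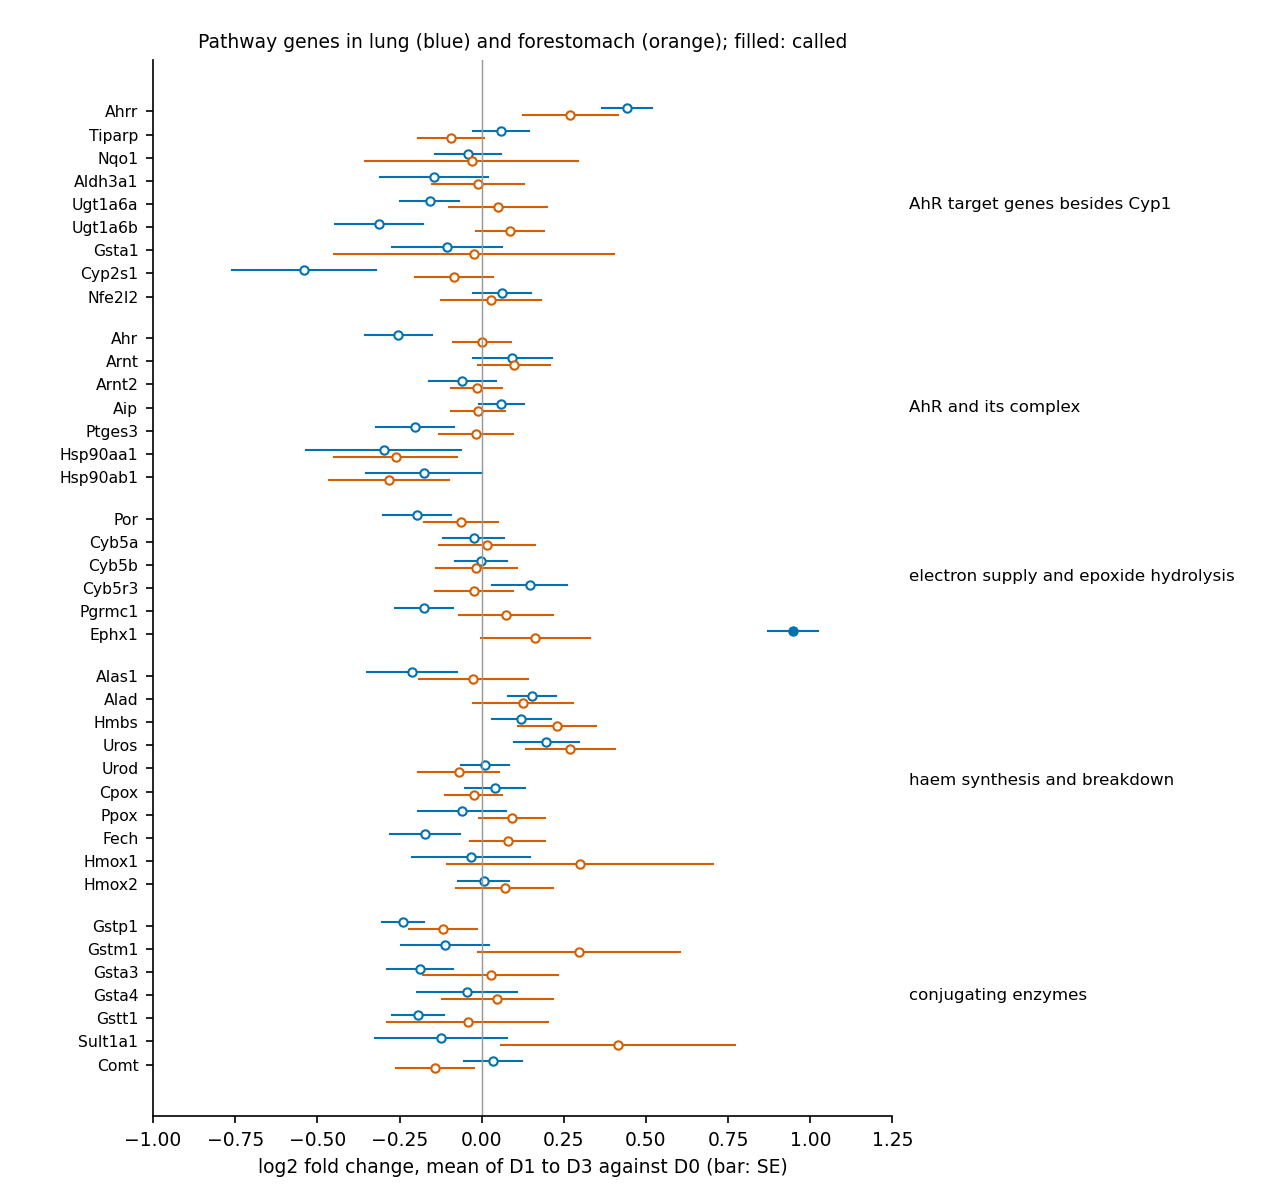
Log2 fold change of the mean of D1 to D3 against D0, with its SE, for each measured gene of 5 pathway lists in lung (blue) and forestomach (orange), with filled points called. Ephx1 in lung (0.95) is the only filled point, and Ahrr in lung (0.44) is the next highest in lung.

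No marker gene of the lung cell types was called beside these differences. Of 7 endothelial, 4 club cell, 5 type 2 and 4 type 1 alveolar, 6 fibroblast and 6 smooth muscle genes measured in lung, 0 were called in the mean of D1 to D3, and the list medians lay between -0.23 (club cells) and 0.13 (smooth muscle). With 0.411% of all probes called in this contrast, a count of 0 among these genes is near that share. Of the marker scores, Cyp1a1 in lung had its highest r with fat, at 0.45 (rho 0.51) over 19 mice, followed by the type 2 score at 0.32 and fibroblasts at 0.31, with 0.13 for endothelium and 0.07 for club cells. The mean fat score was -0.24 in D1, 0.01 in D2 and 0.05 in D3 relative to D0, and its part in the Cyp1a1 values was not tested. Of its 5 genes, Fabp4 and Cidec were well above background on 19 of 19 lung arrays, Lep on 8, Adipoq on 6 and Plin1 on 1. Cyp1b1 had r = 0.48 with the smooth muscle score, whose D0 lungs ranged from -0.86 to 0.57, and 0.72 with the score of 4 p53 target genes, both with dose groups pooled. Heart muscle markers varied between lungs, with scores from -0.93 to 2.05, and Cyp1a1 had r = -0.11 with them.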

How the data were processed

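Total RNA of lung and forestomach was hybridised by the authors to Agilent 60-mer arrays, with tissue RNA in Cy5 and a common reference in Cy3 and no dye swap. The authors deposited the scanner output, with intensity values (median spot and local background signal) and a log10 ratio from Feature Extraction 10.7.3.1, and a table of log2 ratios, which had a slope of 0.990 to 0.998 and r of 0.995 to 0.999 against the ratios computed here. Ratios were computed from median signals of 59305 non-control spots without background subtraction and normalized by loess within each array (limma 3.58.1, R 4.3.3). Control and outlier spots had weight 0, 372 probe values were left out for outlier flags, and the spots of a probe were averaged. Probes were named through RefSeq accessions (GRCm38.p6 table, 26413 of 55681 probes). One limma model per tissue held all 4 dose groups, and a model of 8 group means compared tissues. The study's MAANOVA test was not used here. The software was tested on simulated ratios.

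Lung and forestomach came from the same animal in 18 mice. Same-mouse deviations from the group means correlated over 0.1 in 17 of 18 mice (median 0.23), and mouse as a block was the alternative between tissues. Both tissues of nearly every mouse shared a slide, so mouse and slide cannot be told apart in this correlation. P-values rest on the spread between mice of a group. That spread also holds differences between arrays and slides, since a mouse mostly had 1 array per tissue. Members, gene lists and tests were chosen with earlier results of these data known. Pathway lists used the brightest probe of a gene in the tissue. Named genes were all member probes, pathway genes called at any dose, Ahrr, Tiparp, Nqo1 and Aldh3a1, and the 5 genes closest to a member by Pearson's r among genes well above background on 80% of arrays, of which 1 is not reported here. Cyp2s1, Por and Ahr were named after their values were seen, and so were Cdkn1a as a check of exposure and single marker genes. The 2 D3 forestomach arrays labelled mouse 18 were averaged, and no forestomach array of mouse 20 was used here. Precision was limited by 4 or 5 mice a group and by signal over background. Alternatives covered normalization, background correction, the deposited log2 table, batch, filters, mouse 18, tissue content, mouse as a block and each mouse left out. The Cy5 channel alone was added after seeing the data, because the reference signal of Cyp1a1 was at background.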

Additional observations from a re-analysis of the deposited data

Results flagged for a closer look

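Among 16 groups of 4 or 5 mice tested for Cyp1a1 and Cyp1b1, 2 had a single mouse far from the others by Dixon's test at the 95% level, and chance flags about 1 group in 20. That rate may not hold where most values lie near background. In these 2 groups the probe was well above background on only 2 of 5 D0 and 2 of 4 D2 arrays. Cyp1a1 in D0 forestomach was 3.61 in mouse 5, with a gap of 0.75 of the group's range to the nearest mouse. Cyp1a1 in D2 forestomach was 5.05 in mouse 11, with a gap of 0.88 of the range. The Cy5 signal above local background was 244 intensity units in mouse 5 and 1226 in mouse 11, against at most 39 in the other D0 mice and 26 in the other D2 mice. Cyp1b1 in the same mice was 0.60 and 0.25, the highest of each group. Mouse 11 lay on slide 1, which held no D0 array. Causes were not tested.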

How the results depend on the processing

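Over 26 results for Cyp1a1 and Cyp1b1 and 629 refits, 555 kept the direction and the side of the threshold. Of the others, 40 lost a call, 9 gained one and 25 changed sign. Most results were not called in the main fit, and their refits count as kept when sign and lack of a call stayed. All 40 lost calls fell on Cyp1b1 in lung at D2, D3 and the mean, and on the D0 tissue differences. Cyp1b1 in lung lost its call at D2 in 6 of 9 settings and 6 of 9 fits with a mouse left out. At D3 it did so in 3 of 9 and 5 of 10, and for the mean in 4 of 8 and 9 of 19. The cause of lost or gained calls and of changed signs was not tested.

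Cyp1a1 in lung was called at D1 with slide (-2.16) or scan day (-2.04) as a block and with only the compared groups (-1.91), and at D2 with slide as a block (-1.93). The scanner log ratio gave -3.24, -2.55 and -1.62 at D1, D2 and D3, not called. The mean of D1 to D3 was called with the scanner software's log ratio (-2.47), slide (-1.69), scan day (-1.56) and the Cy5 channel alone (-1.29), and ran from -1.66 to -1.20 without single mice. Cyp1b1 in lung at D2 was not called with median centring (1.04), the scanner log ratio (1.02), the deposited table (0.67), scan day (0.71), only the compared groups (0.73) or Cy5 alone (0.72), and ran from 0.62 to 0.84 without single mice. At D3 it was not called with median centring (0.94), the scanner log ratio (0.89) or only the compared groups (0.66), and ran from 0.55 to 0.77. Its mean of D1 to D3 was not called with median centring (0.87), the deposited table (0.53), slide (0.54) or scan day (0.57), and ran from 0.48 to 0.70. At D0 the tissue difference was not called with median centring, at 1.52 for Cyp1a1 and -0.58 for Cyp1b1. That of Cyp1a1 ran from 1.44 (Cy5 alone) to 4.59 (scanner log ratio) over settings and from 1.76 to 2.72 without single mice.

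In forestomach neither gene was called under any setting. Signs turned for Cyp1a1 at D1 with the scanner log ratio (0.60) and over single mice left out (-0.60 to 0.36), at D2 (-0.52 to 1.36) and for the mean (-0.13 to 0.96). They turned for Cyp1b1 at D1 over single mice (-0.39 to 0.041), at D2 with slide (-0.021) and over single mice (-0.17 to 0.31), and for the mean with the scanner log ratio (-0.011), the deposited table (-0.032), slide (-0.071), both arrays of mouse 18 as samples (-0.0016) and its second array alone (-0.015), and over single mice (-0.17 to 0.27).

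Median centring moved the median of probes above background by 0.32 to 0.39 in lung and 0.23 to 0.71 in forestomach on the log2 scale, and called 0, 5 and 16 probes at D1, D2 and D3 in lung against 78, 147 and 356 with loess, and 4553 against 9034 between tissues. Apart from mice left out, the other settings called 74 to 160, 117 to 242 and 326 to 533, and without mouse 12 of D2 93 were called at D2. For the mean of D1 to D3 in lung the scanner log ratio called 411 and median centring 16 against 229. For the difference of response, slide and scan day called 181 and 191 at D3 against 96, 165 and 166 for the mean against 107, and median centring 2 in both, and without forestomach mouse 16 60 were called at D3. Forestomach counts were 0 to 3 under all settings. With mouse as a fixed or random replicate block no call on Cyp1a1 or Cyp1b1 changed, and between tissues the Cyp1a1 difference at D0 kept its value of 2.03 (adjusted p = 0.0151 and 0.0161). Low signal limited Cyp1a1 in forestomach and Cyp1a2 in both tissues.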
